A study of Mus musculus with 2 samples.

Results

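The EGF receptor family and its ligands were described by 10 genes in whole colon of mice with and without the prostaglandin E2 receptor EP4 in the intestinal epithelium. The members were the receptors Egfr, Erbb2 and Erbb3, the ligands Areg, Ereg, Hbegf, Tgfa and Btc, and the receptor inhibitors Lrig1 and Errfi1. They were chosen as a family through which EP4 is thought to signal in colon epithelium, and the rule used no measured value. Every gene probe whose RefSeq accession belonged to a member was taken, which gave 15 of the 56593 gene probes and 10 of the 22909 genes named on the arrays.

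Total RNA of whole colon was hybridized to Agilent mouse expression arrays in 1 colour (Cy3), with 1 array per genotype. The mice were 8 weeks old and of the strain C57BL/6. The control group carried Villin-Cre, a transgene that makes Cre recombinase in the intestinal epithelium, and the other group (EP4 cKO, Villin-Cre; EP4flox/flox) carried Villin-Cre together with floxed alleles of Ptger4, the gene of EP4. Both groups thus carried Cre, and cells outside the epithelium kept their EP4. Each array received RNA put together from 3 pools of colon tissue. There is thus no replicate to check a difference against and no spread between mice, and p-values are not given. On these arrays Ptger4 itself was not lower by more than 2-fold. Its probes went from 6227 to 5661 (log2 ratio -0.14) and from 393 to 592 (log2 ratio 0.59), the former ratio being 0.90 with scaling to the E1A control spots. The directions given here therefore rest on the labels, and the EP4 cKO array means the array with that label.

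The ligands of this family are made as membrane proteins and are cut free by metalloproteases of the ADAM family. Once released they bind receptor tyrosine kinases that pair with each other and signal through RAS, MAP kinases and PI3 kinase. ERBB2 binds no ligand and ERBB3 has little kinase activity, so these receptors act in pairs. LRIG1 promotes the destruction of the receptors and marks stem cells of the crypt, whereas ERRFI1 (MIG6) binds the kinase and blocks it. EP4 raises cyclic AMP, which can act on genes through the cyclic AMP response element (CRE, TGACGTCA), and prostaglandin E2 is known to activate the EGF receptor in gut epithelium by the release of ligands.

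Promoters of 7 members were in the RefSeq table (GRCm38.p6), each covering 250 bases before and 50 after a start of the gene. The CRE letters were found in those of Areg and Errfi1, both of which are shown 5′ to 3′ because they hold this element near the start, with the promoter of Lrig1 beside them as that of the member with the lowest ratio. Capitals mark the CRE or its shorter core TGACG on either strand, which overlaps the CRE.

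Areg (GRCm38.p6, chr5:91139349-91139648, plus strand): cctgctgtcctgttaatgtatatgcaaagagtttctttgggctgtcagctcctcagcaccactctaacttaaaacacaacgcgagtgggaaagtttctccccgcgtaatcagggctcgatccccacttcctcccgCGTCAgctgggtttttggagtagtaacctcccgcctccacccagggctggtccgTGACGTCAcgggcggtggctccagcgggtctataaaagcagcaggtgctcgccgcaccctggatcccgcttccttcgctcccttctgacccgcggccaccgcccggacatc

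Errfi1 (GRCm38.p6, chr4:150854820-150855119, plus strand): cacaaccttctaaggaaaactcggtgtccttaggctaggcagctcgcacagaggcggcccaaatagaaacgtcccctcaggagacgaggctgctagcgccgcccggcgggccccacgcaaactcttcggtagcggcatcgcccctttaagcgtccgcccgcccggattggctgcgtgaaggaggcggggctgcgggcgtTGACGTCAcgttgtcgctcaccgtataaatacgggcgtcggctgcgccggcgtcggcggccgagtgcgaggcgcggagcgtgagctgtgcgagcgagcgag

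Lrig1 (GRCm38.p6, chr6:94700096-94700395, minus strand): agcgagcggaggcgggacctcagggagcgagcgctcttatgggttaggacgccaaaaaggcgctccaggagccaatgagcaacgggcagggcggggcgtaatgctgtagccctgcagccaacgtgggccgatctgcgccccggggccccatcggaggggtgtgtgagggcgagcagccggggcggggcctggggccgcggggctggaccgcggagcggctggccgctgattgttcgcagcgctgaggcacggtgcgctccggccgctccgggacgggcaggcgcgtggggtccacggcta

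The CRE began 61 bases before the start of Areg and 51 bases before that of Errfi1. Of 32851 promoters of this length in the table, 588 (1.79%) held TGACGTCA, 20.8% held TGACG and 7.81% held TGANTCA, the AP-1 letters, on either strand. A further start of Errfi1 and the promoters of Egfr, Tgfa and Lrig1 held none of these, and those of Erbb2 and Btc held TGACG alone. Such a match describes the letters of the window and no binding.

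None of the 8 members measured on both arrays differed by more than 2-fold between them, while Btc had only a bound, close to 2-fold, and Ereg no ratio. The signal of each array was scaled to a trimmed mean of 2500, and a ratio is EP4 cKO over Villin-Cre on the log2 scale. Of the 15 member probes, 12 were well above background on both arrays by the flag of the scanner software, 1 passed it in EP4 cKO alone and 2 passed it in neither. None of the 12 probes measured on both arrays was past 2-fold in either direction, and the bound of Btc lay just under it (log2 ratio 0.98) but past it with the 75th percentile (1.14), the trimmed mean over all spots (1.11) and loess (1.73). Tgfa too was past 2-fold after loess, and 8 member probes were with scaling to the E1A control spots. For comparison, 3.99% of all 30126 probes with a value exceeded 2-fold upwards and 8.58% downwards. Past 1.5-fold, 2 member probes (Tgfa and Btc) were higher and 2 (both of Lrig1) were lower, against 8.63% and 19.6% of all probes. By gene these were 2 members higher and 1 lower, against 9.84% and 18.6% of all genes. Btc is counted by its bound, and a probe that passed the flag in EP4 cKO alone can only count as higher or as 0. Among the members measured on both arrays, Tgfa alone was past 1.5-fold upwards. The share of all probes measured on both arrays past 1.5-fold was not counted. The median log2 ratio over the 9 members with a value was 0.39, against -0.10 over all 14669 genes with a value. Over the 8 members measured on both arrays it was 0.32, against -0.15 over all genes measured on both. Whole colon holds many cell types, and fewer cells of a type cannot be told apart from less RNA per cell.

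**Figure D1:**
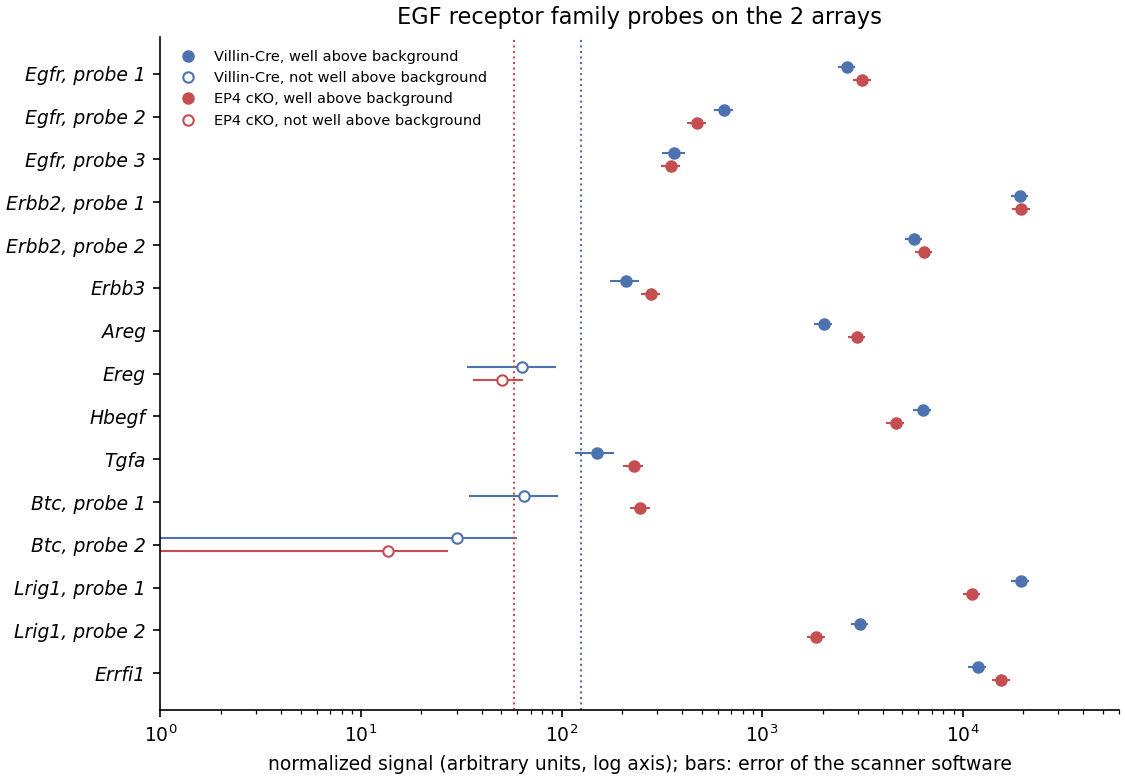
Normalized signal (log axis) of each of the 15 member probes on the Villin-Cre array (blue) and the EP4 cKO array (red), with the signal error given by the scanner software; where that error reaches the signal the bar runs off the left edge. Open circles are not well above background, and dotted lines are the floors of 125 and 57.8. Both probes of Lrig1 lie to the left on the EP4 cKO array and Areg lies to the right.

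The precision of a single ratio was taken from the error that the scanner software gives with each signal. For the 12 probes measured on both arrays this error amounted to between 0.20 and 0.36 on the log2 scale. Probes spotted repeatedly varied less, with a median SD of the log2 ratio of 0.035 over 289 probes. Neither covers the mice. The repeated spots lie on the same 2 arrays, so their SD covers variation between spots and not between hybridizations. Taken from 0, 5 of the 12 ratios were larger than 2 software errors, namely both of Lrig1, those of Areg and Hbegf and 1 of the 3 of Egfr. The list depends on the centre. Relative to the median ratio of all probes measured on both arrays, Hbegf (-0.26) and that probe of Egfr (-0.27) were within 2 errors. Errfi1 (0.58, error 0.20), Erbb3 (0.61, error 0.28), Tgfa (0.80, error 0.36) and Egfr probe A_52_P106259 (0.44, error 0.20) were then past 2 errors. Scaling to the E1A control spots moved every ratio measured on both arrays up by 1.04, and bounds or values held at 0 by up to that much, which turns negative ratios smaller than that positive, also those of the marker lists, so the ratios are also given relative to the median of all probes measured on both arrays, which was -0.19.

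Of the receptors, Egfr had 3 probes that did not move together. Probe A_52_P106259 had a normalized signal of 2642 ± 266 (software error) in Villin-Cre and 3157 ± 316 in EP4 cKO, a log2 ratio of 0.26. Probe A_52_P56471 had 648 ± 72.1 and 474 ± 49.5, a log2 ratio of -0.45. Probe A_52_P674338 had 364 ± 48.1 and 352 ± 38.1, a log2 ratio of -0.05. The highest and the lowest of these ratios lay 0.71 apart, and 13.4% of the 4103 genes with at least 2 probes measured on both arrays had a range as wide as that. The array lists the probe with the lowest ratio under another RefSeq transcript of Egfr (NM_007912) than the others (NM_207655). The mean of the 3 ratios was -0.08, so Egfr had no direction that its probes shared, except with the E1A scaling, where all 3 were positive (1.29, 0.59 and 0.99). Relative to the median of all probes the 3 ratios were 0.44, -0.27 and 0.14, in the same order.

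Erbb2 gave nearly the same signal on both arrays as scaled to the trimmed mean. Its probes went from 19282 ± 1928 to 19632 ± 1963 (log2 ratio 0.03) and from 5722 ± 573 to 6412 ± 641 (log2 ratio 0.16), both within 1 software error of 0. Erbb3, measured by 1 dim probe, went from 209 ± 34.2 to 280 ± 30.6, a log2 ratio of 0.43 with an error of 0.28. After loess the ratio of Erbb3 was 0.77.

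Among the ligands, Areg (amphiregulin) was higher on the array labelled EP4 cKO. Its signal went from 2026 ± 204 to 2971 ± 297, which is 1.47-fold (log2 ratio 0.55, error 0.20). Of the 1236 probes in the same 1 of 20 signal classes, 8.66% had a higher ratio. Relative to the median of all probes its ratio was 0.74, and it was 0.69 after loess and 0.66 with normexp and quantile normalization.

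Hbegf (heparin-binding EGF-like growth factor) moved the other way. Its signal went from 6307 ± 631 to 4629 ± 463, which is 1.36-fold lower (log2 ratio -0.45, error 0.20), and 18.0% of the probes of like signal were lower still, though the ratio was 0.59 with scaling to the E1A control spots. Relative to the median of all probes it was -0.26, against -0.35 after loess and -0.33 with normexp and quantile normalization.

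The other ligands gave little or no signal. Tgfa (transforming growth factor alpha) was just above background, with 150 ± 33.3 and 229 ± 26.6, a log2 ratio of 0.61 with an error of 0.36. Of the 1237 probes of like signal, 1.94% had a higher ratio. That class holds only probes well above background on both arrays, with floors of 125 in Villin-Cre and 57.8 in EP4 cKO. At such low signal these floors leave less room for high ratios than for low ones, so this share cannot show whether Tgfa stands out. The ratio of Tgfa was 1.08 after loess and 0.38 once normexp and quantile normalization were used. Btc (betacellulin) passed the background flag in EP4 cKO alone. Its probe A_55_P2822967 had 247 ± 28.2 there and 65.2 ± 30.5 on the Villin-Cre array. The Villin-Cre side was held at the floor of that array, the lowest normalized signal well above background (125). Btc was then 1.97-fold higher (log2 ratio 0.98). This bound was 0.77 with normexp and quantile normalization, 1.73 after loess and 1.17 relative to the median of all probes. It is not a strict lower limit, because a probe can fail the flag above that floor, as Nrg4 probe A_55_P2185905 did at 150 in Villin-Cre. Before any correction the spot of Btc had a median brightness of 52 against a local background of 24 in Villin-Cre, and of 115 against 23 in EP4 cKO. A further probe of Btc, A_51_P138429, passed the flag on neither array, with 30.0 ± 30.1 and 13.6 ± 13.6. Ereg (epiregulin), a ligand of regenerating gut, likewise passed it on neither, with 63.5 ± 29.8 and 50.3 ± 14.0, and no ratio is given for it.

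**Figure D2:**
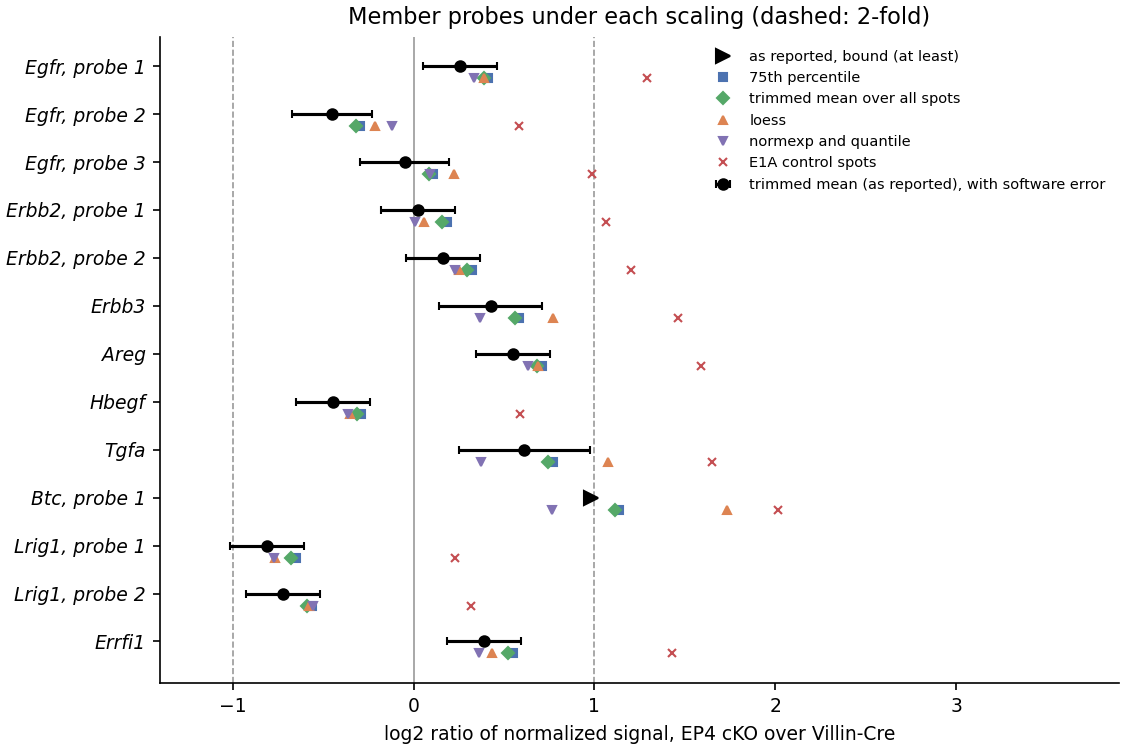
Log2 ratio of the 13 member probes with a value, EP4 cKO over Villin-Cre. Black points are the values as reported with the software error, the black triangle is the bound for Btc, and coloured marks below them are the values under 5 other scalings or background corrections. With scaling to the E1A control spots all 13 shift to the right, by 1.04 in the median of all probes.

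The inhibitors had ratios of opposite sign, though that of Errfi1 lay within 2 software errors of 0. Lrig1 had the lowest ratio of all members, with nearly the same value from both probes, although scaling to the E1A control spots turned them positive (0.23 and 0.32). Probe A_51_P116137 went from 19437 ± 1944 to 11093 ± 1109, which is 1.75-fold lower (log2 ratio -0.81, error 0.20). Probe A_55_P2744324 went from 3076 ± 309 to 1867 ± 187, which is 1.65-fold lower (log2 ratio -0.72, error 0.20). These ratios differed by 0.09, against a median range of 0.24 between the probes of a gene. Of the probes of like signal, 3.40% were lower still than the former and 9.71% than the latter. Relative to the median of all probes the ratios of Lrig1 were -0.62 and -0.54. They were -0.77 and -0.58 after loess, and -0.74 and -0.52 with normexp and quantile normalization. Errfi1, in contrast, went from 11871 ± 1187 to 15564 ± 1556, which is 1.31-fold (log2 ratio 0.39, error 0.20), and 16.7% of the probes of like signal were higher still.

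**Figure D3:**
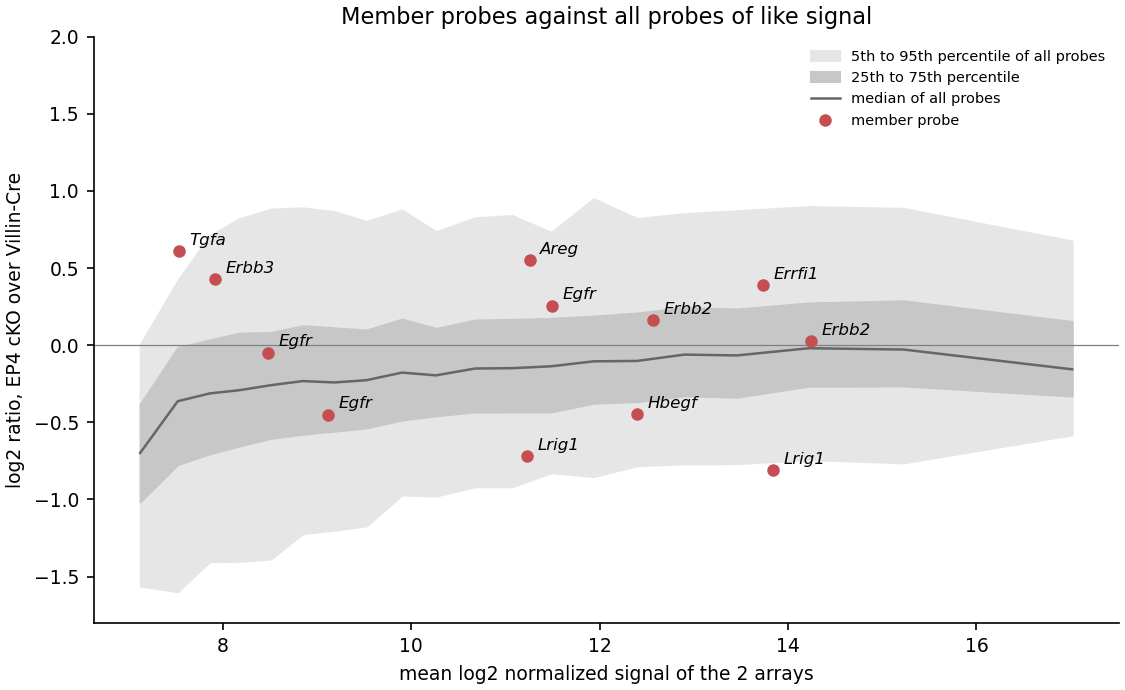
Log2 ratio (EP4 cKO over Villin-Cre) against the mean log2 signal of both arrays, for the 12 member probes measured on both (red) over the percentiles of all 24734 such probes in 20 classes of signal (grey). Lrig1, at -0.81, and Tgfa, at 0.61, lie outside the band from the 5th to the 95th percentile. The median of all probes is lower at low signal, where the unequal floors of the arrays leave less room for high ratios than for low ones.

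Areg and Errfi1 were 2 of many genes whose promoter held the CRE. Of the 390 genes with a value whose promoter held TGACGTCA, 5 (1.28%) exceeded 2-fold upwards and 29 (7.44%) downwards, and the median log2 ratio was -0.18. Among the 11297 genes whose promoter did not hold it, the shares were 4.81% and 7.67% and the median was -0.10. Of 61 further pathway genes with a promoter in the table, 2 held the CRE, namely Ptpn11 (log2 ratio 0.00) and Braf (-0.53). The quartiles of the genes with the CRE were -0.47 and 0.09, and the ratios of Areg (0.55) and Errfi1 (0.39) lay above the upper one.

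The rest of the pathway was described by 6 lists of 85 genes in all, of which 77 had a value. Over these lists 2 genes exceeded 2-fold upwards and 2 downwards in EP4 cKO, against 4.86% and 7.87% of all genes. The median log2 ratio of the lists, -0.10, was that of all genes.

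Of the other receptor and ligands of the family, only Egf and Nrg4 had a probe well above background on either array. Egf, the ligand that gave the family its name, went from 629 ± 68.6 to 294 ± 32.0, which is 2.14-fold lower (log2 ratio -1.10, error 0.22). This was past 2-fold with the trimmed mean of gene probes, whereas the ratio was -0.94 with the 75th percentile, -0.96 with the trimmed mean over all spots, -0.84 after loess, -0.51 with normexp and quantile normalization and -0.06 with the E1A control spots. Nrg4 passed the flag in EP4 cKO alone and had no fold above 1. The receptor Erbb4 and the ligands Epgn, Nrg1, Nrg2 and Nrg3 passed it on neither array.

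Of 8 genes of ligand release, 1 exceeded 2-fold downwards and none upwards, and the median log2 ratio was -0.18. Adam12, a metalloprotease of stromal cells that can free HB-EGF, went from 1162 to 154 (7.54-fold lower, log2 ratio -2.91), with -1.73 after normexp and quantile normalization and -1.88 with the E1A control spots. A further probe of Adam12 was dim on both arrays (31.7 and 14.2). Adam17, the main protease for amphiregulin, HB-EGF and TGF-alpha, had a log2 ratio of -0.17, and Adam10, which acts on betacellulin and EGF, one of 0.34. A dimmer probe of Adam10 had -0.14, and from -0.01 to 0.90 under the 5 other scalings or background corrections, 4 of which gave a positive value.

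Of 20 receptor adaptors and turnover genes, 1 exceeded 2-fold upwards and none downwards, and the median log2 ratio was -0.24. Sh3kbp1 (CIN85), an adaptor that joins CBL to the endocytosis of receptors, went from 157 to 606 (3.85-fold, log2 ratio 1.95), with 1.30 after normexp and quantile normalization. Its 3 other probes were dimmer and gave bounds of 0.54 and 0.47 and no fold, and with the mean of all its probes Sh3kbp1 was not past 2-fold. Lrig2 and Lrig3, relatives of Lrig1 that were picked out after their values were seen, had log2 ratios of -0.85 and -0.68, and turned positive with the E1A scaling (0.18 and 0.36). The other probe of Lrig2 had -0.12, and was positive under all 5 other scalings or background corrections (0.01 to 0.91). The ubiquitin ligase genes Cbl (-0.78) and Cblc (0.71), likewise picked out afterwards, had ratios of opposite sign, the latter with both of its probes (0.71 and 0.68). Cblb of the same list had -0.60, and Cbl turned positive with the E1A scaling (0.26).

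None of the 21 measured genes of the RAS, MAPK and PI3K core and none of the 5 MAPK feedback inhibitors measured on both arrays was past 2-fold. Of the other 3 inhibitors, dim on 1 array, Dusp4 had a bound and Dusp5 and Spry4 no fold. In the core the lowest ratio was -0.84 (Pik3r1, the regulatory subunit of PI3 kinase) and the median was -0.07. With scaling to the E1A control spots, 10 core genes were more than 2-fold higher. Among the inhibitors the ratios ran from -0.47 (Spred1) to a bound of 0.62 (Dusp4) that was past 2-fold after loess (1.33), and Dusp6, an ERK phosphatase that ERK signaling induces, had 0.54. Of 18 growth factor response genes with a value, 1 was more than 2-fold higher and none lower, with a median of -0.11. This was Plaur, the urokinase receptor, which went from 257 to 695 (2.70-fold, log2 ratio 1.43). Jun had the lowest ratio of that list, -0.94.

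**Figure D4:**
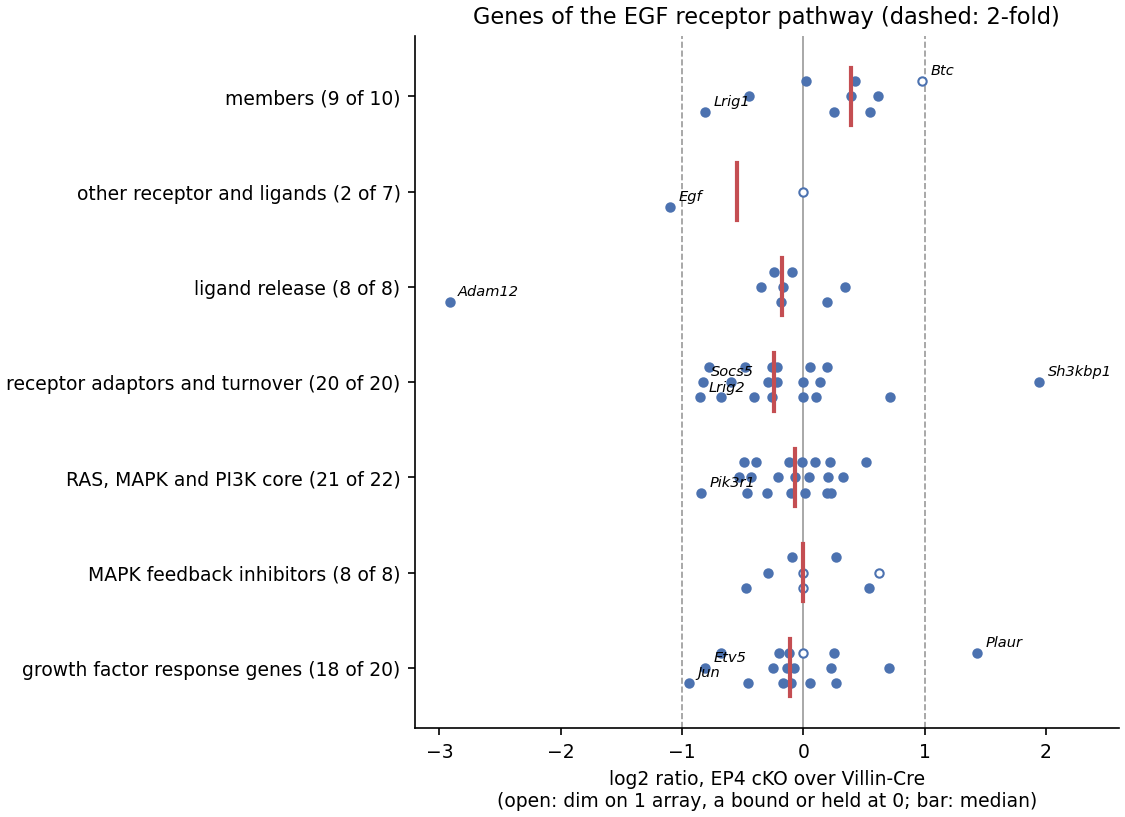
Log2 ratio (EP4 cKO over Villin-Cre) of every gene with a value in the member list and the 6 pathway lists, with the number of genes with a value of the number listed; red bars are medians, open circles are bounds or values held at 0 and dashed lines mark 2-fold. The members have a median of 0.39, and Adam12, Egf, Sh3kbp1 and Plaur lie past 2-fold.

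Markers of the cell types of whole colon differed between the arrays as well. All 10 epithelium markers were well above background on both arrays, with a median log2 ratio of 0.37 and summed signals of 1892883 and 2526773, and 1 of them, Krt20, a marker of surface cells, was more than 2-fold higher (1.80). Of 8 crypt base markers, which are the nearest to Lrig1 by site, 7 had a value. Of these 6 had a ratio below 0, Lgr5 (-1.09) was more than 2-fold lower, though not under the other scalings (-0.96 to -0.06), and Cd44 (0.96) had the only ratio above 0, with a median of -0.67. Their summed signal went from 42849 to 28557. Of the fibroblast markers 7 of 8 had a value and 6 were more than 2-fold lower, with a summed signal of 14450 and 1293, and Col1a1, Col3a1 and Lum did not pass the background flag in EP4 cKO. The goblet cell list had a median of 0.09, with ratios from -0.75 (Tff3) to 1.31 (Clca1, the only gene of that list past 2-fold). The smooth muscle list had a median of 0.19 and was split, with Cnn1 (-2.73) and Myl9 (-2.15) more than 2-fold lower and 3 of its 6 genes with a value above 0. The immune cell list had a median of 0.00, with ratios from -0.79 to 0.97, the endothelium list -0.05 over 2 of 5 genes, and the enteric neuron and glia list -1.12 over 2 of 7 genes. Of the 6 mast cell and basophil markers 3 were more than 2-fold higher, all as bounds, and the summed signal went from 2948 to 13836. Kit, the only one of them measured on both arrays, went from 2615 to 1604 (log2 ratio -0.71). The part of these differences in the ratios of Lrig1, Areg, Egf and Adam12 was not tested.

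**Figure D5:**
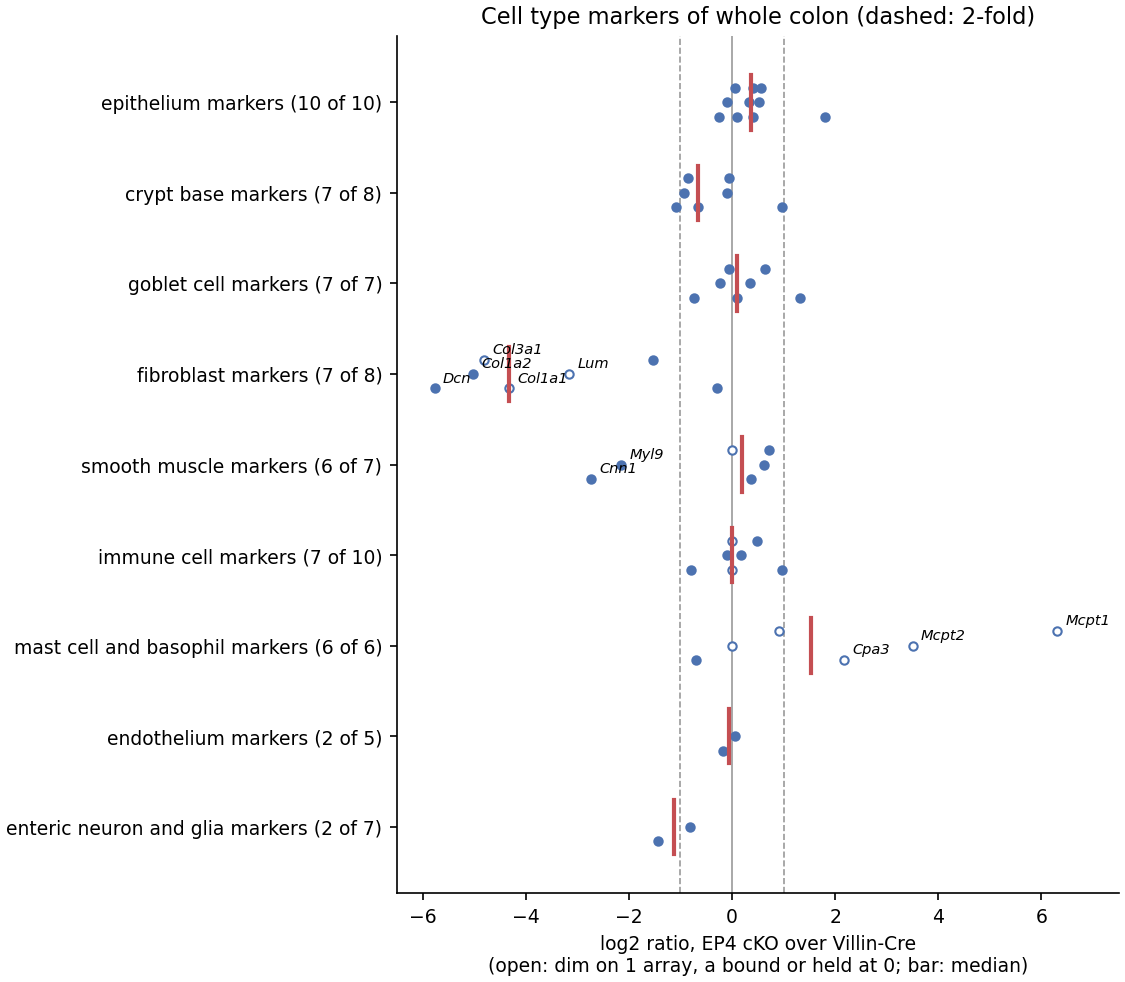
Log2 ratio (EP4 cKO over Villin-Cre) of cell type markers with a value, with the number of genes with a value of the number listed; red bars are medians, open circles are bounds or values held at 0 and dashed lines mark 2-fold. The fibroblast markers have a median of -4.32, the crypt base markers -0.67 and the epithelium markers 0.37.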

How the data were processed

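The authors deposited the scanner output (Feature Extraction 12.0.3.1 per the file headers, 11.5.1.1 per the processing notes), whose processed intensity is background-subtracted and detrended by the software and not normalized between arrays. The software's signal error and its flags (score 0 or 1) were used as deposited. Control spots were left out, as were outlier spots (147 for Villin-Cre, 126 for EP4 cKO), spots of a probe averaged, and each array scaled to a trimmed mean of 2500 without 2% of the probes at each end (factors 3.45 and 2.68). In all, 45.4% and 51.6% of the probes were well above background, and no spot was saturated.

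A probe well above background on 1 array only took for its dim side that array's floor or its own signal, whichever was higher, and a bound that did not exceed 1 was set to 0. The gene value is that of the probe with the highest mean log2 signal. Probes were named by RefSeq accession through GRCm38.p6 genes (32989 probes, 58.3%). The grid refers to an older build, so no probe coordinate is given.

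The members, lists and tests were chosen with earlier results of these data known. Named were all members, Ptger4, the other family genes, of each further pathway list up to 3 genes past 2-fold in each direction measured on both arrays and, where none passed, the highest and lowest; other names were picked out after their values were seen, and 1 result under this rule is not reported here. The alternatives were the 75th percentile, a trimmed mean over all spots, loess (span 0.3), the E1A control spots, normexp (offset 50, on median spot signals, as no mean signal was used here) with quantile normalization, both-array or no filter on dim probes, 1 floor for both arrays, a gene's mean over its probes, and thresholds of 3-fold and 1.5-fold. The scaling and thresholds were tested on simulated data. The versions were limma 3.58.1 under R 4.3.3, and pandas 2.3.3, numpy 2.4.6, matplotlib 3.10.9 and statsmodels 0.14.6 under Python 3.11.15. With 1 array per genotype no sample could be left out.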

Additional observations from a re-analysis of the deposited data

How the results depend on the processing

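No member probe was more than 2-fold lower except without a filter on dim probes (1 probe of Btc, dim on both arrays) or at 1.5-fold (2). The count of member probes more than 2-fold higher, 0 as reported, was 1 with the 75th percentile, 1 with the trimmed mean over all spots, 1 without a filter on dim probes, 2 after loess (Btc and Tgfa), 2 at 1.5-fold and 8 with scaling to the E1A control spots. That last scaling raised the median of all probes by 1.04, against 0.16, 0.13, 0.18 and 0.16 for the 75th percentile, all spots, loess and normexp. It turned the ratios of Lrig1 (0.23 and 0.32) and Hbegf (0.59) positive and took the median of the members to 1.43 and that of the pathway genes to 0.90. A constant scaling cannot change a ratio relative to the median of all probes, so only loess and normexp with quantile normalization bear on these relative values, and under both the 13 member probes with a value kept their direction.

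The 2 pathway genes more than 2-fold higher became 30 with the E1A spots, 1 with the mean of all probes (without Sh3kbp1), 5 at 1.5-fold and 1 at 3-fold. The 2 lower became 1 with the 75th percentile, with all spots, after loess, after normexp and with the E1A spots, 7 without a filter on dim probes, 11 at 1.5-fold and 1 at 3-fold. Of the 8 MAPK feedback inhibitors, 1 was more than 2-fold higher after loess (Dusp4), 1 without a filter on dim probes and 4 with the E1A spots, against 0 as reported. The cause was not tested. All other values of the counts and medians over members and over all pathway lists changed by less than the median software error, or for counts by at most 1.5 times. No paired analysis was possible because each genotype has 1 array. Low signal over background limits the values of Ereg, Btc, Tgfa and Erbb3, and the number of arrays limits the precision of every value.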
